A study of Mus musculus with 14 samples.

Results

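The BCL2 family of apoptosis regulators was examined as 10 genes chosen by name: Bcl2, Bcl2l1, Mcl1, Bax, Bak1, Bcl2l11, Pmaip1, Bbc3, Bid and Bad. All 10 were found among the 46517 genes of the expression table, and all 10 passed the filter on low values, which asks for 3 or more libraries with an FPKM of 1 or above. FPKM is a read density per length of transcript and depth of library, so levels may be compared between genes. The genes were measured by RNA-seq in 14 untreated lung tumours from 2 mouse models of SCLC, the small cell form of lung cancer with neuroendocrine features. RPM tumours (n = 11) came from mice with floxed Rb1, floxed Trp53 and a Cre-activated Myc T58A allele. By the source names, 9 RPM tumours were LSL/LSL for the Myc allele and 2 were LSL/+ (RPM replicates 2 and 4). RPR2 tumours (n = 3) came from mice with floxed Rb1, floxed Trp53 and floxed Rbl2, the gene of p130. Both models were started in the lung by an adenovirus carrying Cre under the Cgrp promoter, one used by neuroendocrine cells, so the Rb1 and Trp53 alleles are shared by all groups. Tumours were dissected by eye and hold other cells of the lung, and nothing in the labels says whether they came from separate animals, so p-values measure the spread between these tumours only.

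BCL2 family proteins decide whether the outer membrane of the mitochondrion is opened, the step that releases cytochrome c and starts the caspase cascade. BAX and BAK1 form the pores, BCL2, BCL-XL (the product of Bcl2l1) and MCL1 hold them in check, and the BH3-only proteins BIM (Bcl2l11), PUMA (Bbc3), NOXA (Pmaip1), BID and BAD either bind the pro-survival proteins or activate the pore formers. Bax, Bbc3 and Pmaip1 are textbook targets of p53, whose gene is floxed in both models. MYC is known to sensitise cells to apoptosis, and dependence of SCLC on BCL2, BCL-XL or MCL1 has made these proteins drug targets in this cancer.

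The promoter bases of 5 members are shown because 4 of them (Bax, Bid, Bcl2l1 and Bcl2l11) are the members whose tumour models did not overlap in expression, and Bbc3 is the other member with a canonical E-box. Sequences are from RefSeq on GRCm38.p6, 5′ to 3′ on the strand of the gene. They end at the base before the RefSeq start site, except for Bid, where bases next to the start that GENCODE counts as exon are left out. The capitals mark CACGTG, the E-box that MYC with its partner MAX is known to bind, which reads the same on both strands. The bases lie at chr7:45466899-45467148 (minus strand) for Bax, chr7:16310181-16310430 (plus strand) for Bbc3, chr6:120916854-120917074 (minus strand) for Bid, chr2:152831729-152831978 (minus strand) for Bcl2l1 and chr2:128125788-128126037 (plus strand) for Bcl2l11.
Bax: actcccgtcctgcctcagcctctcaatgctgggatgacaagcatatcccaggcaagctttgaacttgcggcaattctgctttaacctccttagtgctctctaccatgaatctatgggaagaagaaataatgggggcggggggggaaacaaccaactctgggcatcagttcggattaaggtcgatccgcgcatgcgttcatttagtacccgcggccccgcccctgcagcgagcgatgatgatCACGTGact
Bbc3: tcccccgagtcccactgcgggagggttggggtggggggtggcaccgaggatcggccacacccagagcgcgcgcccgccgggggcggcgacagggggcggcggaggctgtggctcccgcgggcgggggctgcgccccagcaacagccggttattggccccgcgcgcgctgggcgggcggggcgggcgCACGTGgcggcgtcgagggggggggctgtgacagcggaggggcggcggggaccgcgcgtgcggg
Bid: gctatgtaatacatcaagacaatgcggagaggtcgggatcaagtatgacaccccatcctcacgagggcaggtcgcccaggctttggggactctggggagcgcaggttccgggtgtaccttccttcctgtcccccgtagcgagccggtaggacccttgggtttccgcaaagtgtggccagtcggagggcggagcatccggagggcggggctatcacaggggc
Bcl2l1: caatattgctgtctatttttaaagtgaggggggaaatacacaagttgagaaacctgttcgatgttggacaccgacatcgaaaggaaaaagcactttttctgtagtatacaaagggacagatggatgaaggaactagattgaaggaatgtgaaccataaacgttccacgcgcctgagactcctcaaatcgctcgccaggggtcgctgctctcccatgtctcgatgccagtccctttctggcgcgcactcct
Bcl2l11: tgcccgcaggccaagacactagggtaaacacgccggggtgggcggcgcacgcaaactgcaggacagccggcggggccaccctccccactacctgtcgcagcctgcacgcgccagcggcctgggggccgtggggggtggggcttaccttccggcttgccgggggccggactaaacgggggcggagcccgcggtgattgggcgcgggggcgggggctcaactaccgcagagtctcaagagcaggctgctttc
In windows from 250 bases before to 50 bases after a start site, CACGTG was found in 2 of 15 windows of 9 members, against 7.15% of 32851 windows of all genes. The Bax window held it at position -9, shown above, and again at position 35 after the start. One Bbc3 window held it at position -64, and the windows of Bid, Bcl2l1, Bcl2l11, Bcl2, Mcl1, Bak1 and Bad did not hold these letters. The windows of the members were rich in G and C, with a median GC content of 65.67% (49.33 to 78%), against 52.67% in all windows. They held a median of 27 CpG dinucleotides, against 7 in all windows, and 13 of the 15 lay above the median GC content of all windows. A match is a description of the sequence, and binding was not measured here.

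Depth was estimated from the steps of the lowest values, since the table holds no counts. It came to 17.4 to 20.1 M reads in RPM and 21.3 to 23.0 M in RPR2. A count of 3 reads over 2 kb then equals 0.0746 to 0.0862 FPKM in RPM and 0.0652 to 0.0704 FPKM in RPR2, counting error only. Myc averaged 224 ± 88.7 FPKM in RPM (SD, n = 11) and stood at 4.68, 6.83 and 13.64 FPKM in RPR2 (log2 difference 4.55, limma adjusted p = 3.32e-06). Rb1, Trp53 and Rbl2 did not pass the test, though Rbl2 was called higher in RPM with quantile normalization (0.72, adjusted p = 0.0120) and Rb1 lower without RPR2 replicate 3 (-2.0, adjusted p = 0.00102), and a value for a whole gene does not check a deletion within it. RPR2 replicate 3 stood apart from its group. Its 8 neuroendocrine markers summed to 12.8 FPKM, against 2412.58 and 3583.68 FPKM in RPR2 replicates 1 and 2 and 217.78 to 1276.2 FPKM in RPM. There Insm1, Chga, Chgb, Syp and Ncam1 were each below 1 FPKM, so the labelled tumour type was not borne out by its markers in that library, whereas all 8 were above 4 FPKM in each of the other tumours. Its 7 alveolar type 2 markers summed to 51214.6 FPKM, against 1222.35 and 1935.77 FPKM in the other RPR2 tumours and 15.62 to 870.32 FPKM in RPM, and its 11 macrophage markers to 1880.28 FPKM, against 266.17 to 890.43 FPKM elsewhere. Lyz2 alone supplied 1468.72 FPKM of that macrophage sum. Cd68, Csf1r, Mrc1, Itgax, Marco and Cd14 were also highest in RPR2 replicate 3, while Adgre1, C1qa, C1qb and C1qc lay within the RPM range. Member differences are given with and without RPR2 replicate 3, since it stood apart. For other genes the list medians are given both ways, and the differences without it for some genes only. The part of these cells in the results was not tested.

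Of the 10 members, 2 were called higher in RPM (Bax and Bid) and 3 lower (Bcl2l1, Bcl2l11 and Bcl2), while 5 were called in neither direction (Mcl1, Bak1, Bad, Pmaip1 and Bbc3). Calls are by limma on log2(FPKM + 1) with Benjamini-Hochberg adjustment over 15719 genes at 0.05. Of all genes tested 18.4% were called higher and 22.8% lower, so the members were called about as often as genes at large. Without RPR2 replicate 3 the same 2 were called higher and the same 3 lower, against 16.2% and 28.5% of all genes. For 2 members (Bax and Bid) the lowest RPM tumour exceeded the highest RPR2 tumour, as for 11.1% of all genes, and for 2 (Bcl2l1 and Bcl2l11) the highest RPM tumour lay below the lowest RPR2 tumour, as for 13.6%. The median log2 difference of the members was -0.43, against -0.06 over all genes tested. Without RPR2 replicate 3 it was -0.18, against -0.22 over all genes. In bulk tissue, fewer cells of a type and less RNA per cell cannot be told apart.

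**Figure D1:**
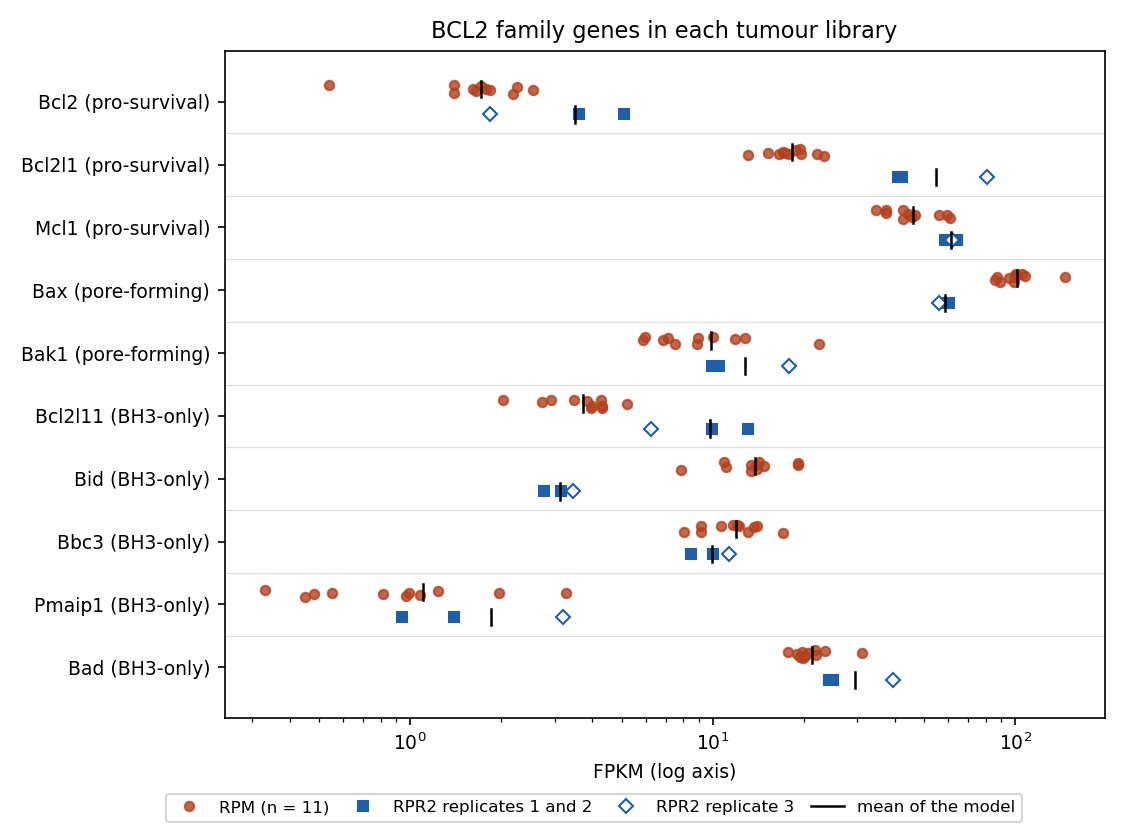
FPKM (log axis) of the 10 BCL2 family genes in each tumour, RPM above RPR2 within a gene, with 1 point per library, RPR2 replicate 3 as an open diamond and a bar at the mean of each model. Bax and Bid lie higher in every RPM tumour (at least 86.05 and 7.87 FPKM) than in any RPR2 tumour (at most 60.47 and 3.46 FPKM), and Bcl2l1 and Bcl2l11 lie lower in every RPM tumour.

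Among the pore formers, Bax, which moves from the cytosol into the mitochondrial membrane when activated, was the most abundant member in every RPM tumour. Bax (GRCm38 chr7:45461697-45466898, minus strand) ranged from 86.05 to 145.85 FPKM in RPM (median 100) and stood at 60.47, 59.80 and 56.06 FPKM in RPR2. The models did not overlap, and on the deposited scale the RPR2 tumours lay close together, RPR2 replicate 3 included. The FPKM values of all genes summed to 825292 in RPR2 replicate 3, against 523529 and 545461 in RPR2 replicates 1 and 2. The mean was 1.73-fold higher in RPM, 101.5 ± 16.3 FPKM (SD, n = 11) against 58.8 ± 2.38 FPKM in RPR2 (SD, n = 3). On the log2 scale Bax differed by 0.76 (SE 0.14, limma adjusted p = 0.000616), and it was 0.73 (adjusted p = 0.00250) without RPR2 replicate 3.

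Bak1, the pore former that resides in the membrane, was far less abundant. It (GRCm38 chr17:27019810-27029009, minus strand) ranged from 5.88 to 22.49 FPKM in RPM (median 8.85) and stood at 10.51, 9.94 and 17.92 FPKM in RPR2. The models overlapped, with the highest value of all in RPM replicate 5. The log2 difference was -0.40 with a 95% interval from -1.07 to 0.28 (limma adjusted p = 0.336), an interval that reaches from a fall to a small rise. Without RPR2 replicate 3, the highest RPR2 tumour, the difference was -0.15 (adjusted p = 0.762). Bax made up 81.6 to 96.1% of the summed FPKM of both pore formers in RPM (median 92.0%) and 85.2, 85.7 and 75.8% in RPR2. The summed level of both ranged from 93.54 to 151.73 FPKM in RPM and was 70.98, 69.74 and 73.98 FPKM in RPR2, without overlap.

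Among the pro-survival genes, Bcl2l1 was lower in every RPM tumour. Bcl2l1 (GRCm38 chr2:152780668-152831728, minus strand) ranged from 13.11 to 23.31 FPKM in RPM (median 17.81) and stood at 42.11, 40.84 and 80.93 FPKM in RPR2. RPR2 replicate 3, the tumour with the high alveolar type 2 markers, held the highest value, and the other RPR2 tumours still lay above all RPM tumours. The mean was 3.0-fold lower in RPM, 18.2 ± 2.91 FPKM (SD, n = 11) against 54.6 ± 22.8 FPKM in RPR2 (SD, n = 3). Bcl2l1 differed by -1.47 on the log2 scale (SE 0.20, limma adjusted p = 4.66e-05), and -1.16 (adjusted p = 0.000149) without RPR2 replicate 3.

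Bcl2, the founding member of the family, was among the least abundant members in both models. It (GRCm38 chr1:106538178-106714274, minus strand) ranged from 0.54 to 2.55 FPKM in RPM (median 1.72) and stood at 5.08, 3.61 and 1.83 FPKM in RPR2. RPR2 replicates 1 and 2 lay above all RPM tumours, while RPR2 replicate 3 lay within the RPM range. The log2 difference was -0.69 (SE 0.25, limma adjusted p = 0.0405), and -0.99 (adjusted p = 0.00643) without RPR2 replicate 3. The call was lost without RPR2 replicate 1 (-0.44, adjusted p = 0.248) or RPR2 replicate 2 (-0.64, adjusted p = 0.131), and in 14 of the 25 alternatives in all.

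Mcl1, whose short-lived product restrains BAK1 and BIM, was the most abundant pro-survival member in every tumour but RPR2 replicate 3. It (GRCm38 chr3:95658788-95663176, plus strand) ranged from 34.58 to 60.76 FPKM in RPM (median 44.33) and stood at 58.50, 64.14 and 61.65 FPKM in RPR2. RPM replicates 5 and 7 reached the RPR2 range, at 59.35 and 60.76 FPKM, and the other RPM tumours lay below it. For Mcl1 the log2 difference was -0.43 (95% interval -0.79 to -0.07 before adjustment), and it did not pass after adjustment over all genes (limma adjusted p = 0.0541; 0.0965 without RPR2 replicate 3). Leaving out RPM replicate 1, 5 or 7 moved it past the threshold (adjusted p = 0.0434, 0.0330 and 0.0328).

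The make-up of the pro-survival group differed with the model. Mcl1 supplied 63.8 to 77.8% of the summed FPKM of Bcl2, Bcl2l1 and Mcl1 in RPM (median 67.0%), and 55.4, 59.1 and 42.7% in RPR2. Bcl2l1 supplied 20 to 32.6% in RPM (median 29.6%) and 39.8, 37.6 and 56% in RPR2. Neither share overlapped between the models, and in RPR2 replicate 3 Bcl2l1 exceeded Mcl1. Bcl2 supplied 1.05 to 3.57% in RPM and 4.81, 3.32 and 1.27% in RPR2. The summed level of the 3 genes was 51.67 to 79.84 FPKM in RPM and 105.69, 108.59 and 144.41 FPKM in RPR2, so every RPM tumour lay below every RPR2 tumour. As Bcl2 supplied at most 4.81% in any tumour, the shares of Mcl1 and Bcl2l1 nearly mirror each other and count as 1 separation. The level of Mcl1 itself was not higher in RPM (log2 difference -0.43). These shares are a description and were not tested.

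**Figure D2:**
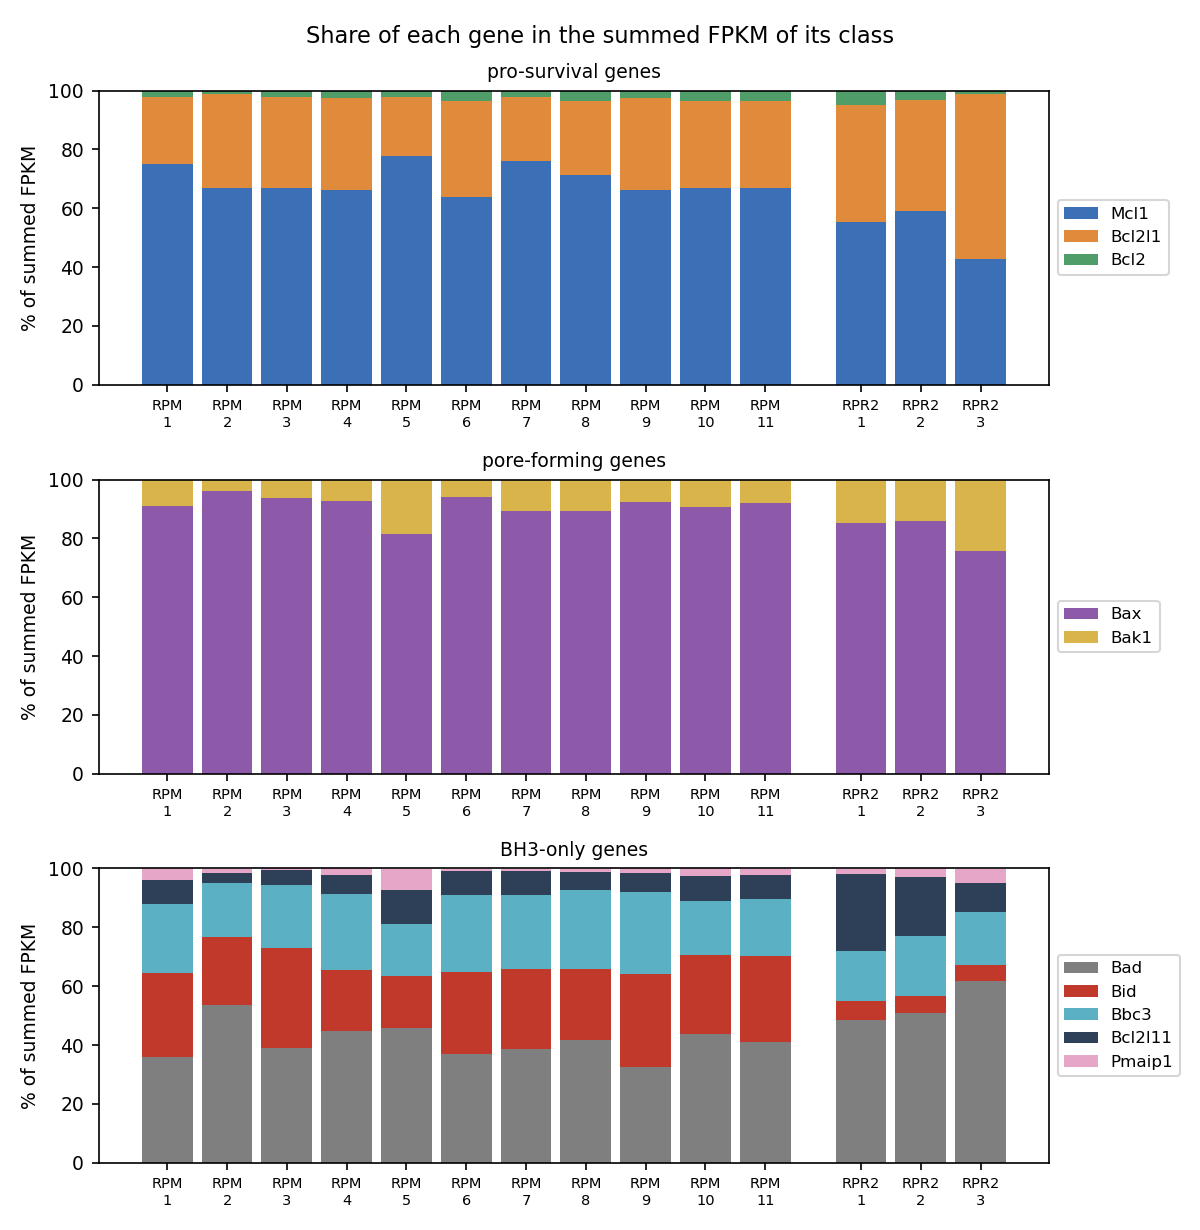
Share in percent of each gene in the summed FPKM of its class, with 1 stacked bar per tumour, RPM left of RPR2, for the pro-survival, pore-forming and BH3-only genes. In RPM the Mcl1 part (63.8 to 77.8%) is larger and the Bcl2l1 part (20 to 32.6%) smaller than in RPR2, and the Bid part is larger (17.5 to 33.9%, against 5.44 to 6.32% in RPR2). The Mcl1 and Bcl2l1 parts nearly mirror each other, and the level of Mcl1 itself was not higher in RPM.

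Among the BH3-only genes, Bid and Bcl2l11 moved in opposite directions. BID links death receptors to the mitochondrion once caspase 8 has cut it. Bid (GRCm38 chr6:120891930-120916853, minus strand) ranged from 7.87 to 19.14 FPKM in RPM (median 13.86) and stood at 3.15, 2.77 and 3.46 FPKM in RPR2. Even the lowest RPM value, in replicate 5, lay above all RPR2 tumours, which were close to each other on the deposited scale. The mean was 4.41-fold higher in RPM, 13.8 ± 3.30 FPKM (SD, n = 11) against 3.13 ± 0.346 FPKM in RPR2 (SD, n = 3). Bid differed by 1.81 on the log2 scale (SE 0.21, limma adjusted p = 1.25e-05), and 1.87 (adjusted p = 4.55e-05) without RPR2 replicate 3.

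Bcl2l11 encodes BIM, which binds all pro-survival members and can activate BAX. Bcl2l11 (GRCm38 chr2:128126038-128162547, plus strand) ranged from 2.02 to 5.19 FPKM in RPM (median 3.96) and stood at 13.08, 9.94 and 6.26 FPKM in RPR2. The models did not overlap, and RPR2 replicate 3 lay nearest to RPM. The mean was 2.62-fold lower in RPM, 3.73 ± 0.889 FPKM (SD, n = 11) against 9.76 ± 3.41 FPKM in RPR2 (SD, n = 3). The log2 difference was -1.16 (SE 0.23, limma adjusted p = 0.00115), and -1.42 (adjusted p = 0.000329) without RPR2 replicate 3.

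The other BH3-only genes were not called. Bad, a sensitiser that growth factor signalling holds inactive by phosphorylation (GRCm38 chr19:6941861-6951899, plus strand), ranged from 17.79 to 31.22 FPKM in RPM (median 20.17) and stood at 24.19, 25.00 and 39.42 FPKM in RPR2. RPM replicate 2, an LSL/+ tumour, lay above RPR2 replicates 1 and 2, and the other RPM tumours lay below all RPR2 tumours. The log2 difference of Bad was -0.43 (95% interval -0.80 to -0.06 before adjustment, limma adjusted p = 0.0593) and -0.21 (adjusted p = 0.338) without RPR2 replicate 3. It passed without RPM replicate 2 (-0.48, adjusted p = 0.0171) and without RPR2 replicate 1 (-0.55, adjusted p = 0.0485).

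Bbc3, the gene of PUMA (GRCm38 chr7:16308393-16318205, plus strand), ranged from 8.03 to 17.13 FPKM in RPM (median 12.07) and stood at 8.45, 10.01 and 11.30 FPKM in RPR2, within the RPM range. Its log2 difference was 0.22 (95% interval -0.20 to 0.64, limma adjusted p = 0.388), and 0.31 (adjusted p = 0.276) without RPR2 replicate 3. Pmaip1, the gene of NOXA, which acts mainly on MCL1, was the least abundant member in RPM by mean. It ranged from 0.33 to 3.27 FPKM in RPM (median 0.97) and stood at 0.94, 1.40 and 3.21 FPKM in RPR2, with RPM replicate 5 and RPR2 replicate 3 high and close to each other. The log2 difference of Pmaip1 was -0.44 (95% interval -1.13 to 0.25, limma adjusted p = 0.293), and -0.12 (adjusted p = 0.798) without RPR2 replicate 3.

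The summed level of the 5 BH3-only genes was similar in range, 44.96 to 60.98 FPKM in RPM and 49.81, 49.12 and 63.65 FPKM in RPR2, whereas their make-up differed. Bid supplied 17.5 to 33.9% of it in RPM (median 27.2%) and 6.32, 5.64 and 5.44% in RPR2, without overlap. Bcl2l11 supplied 3.48 to 11.5% in RPM (median 8.01%) and 26.3, 20.2 and 9.84% in RPR2, with RPR2 replicate 3 inside the range of RPM. Per tumour, the ratio of Bid to Bcl2l11 was 1.52 to 6.62 in RPM and 0.241, 0.279 and 0.553 in RPR2. The ratio of Bax to Bcl2l1 was 4.09 to 8.81 in RPM and 1.44, 1.46 and 0.693 in RPR2. Bax, Bid, Bcl2l1 and Bcl2l11 did not overlap themselves, so neither ratio could overlap, and the ratios add no further evidence. Bid exceeded Bcl2l11 in every RPM tumour and in no RPR2 tumour.

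**Figure D3:**
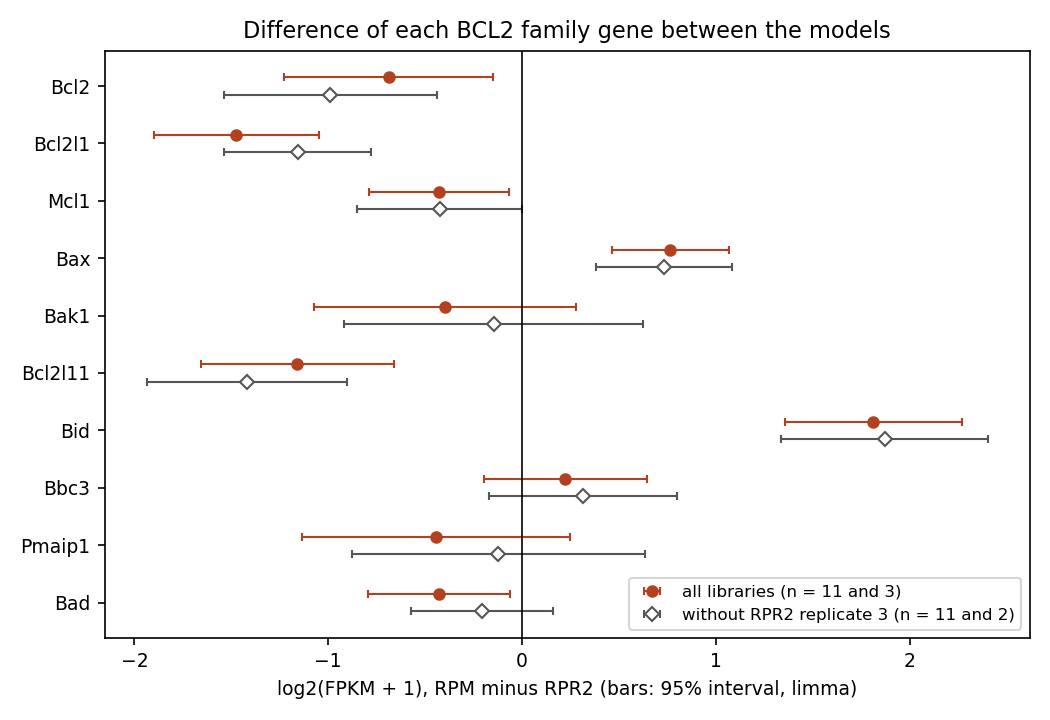
Difference in log2(FPKM + 1), RPM minus RPR2, for each BCL2 family gene, with bars for the 95% interval from limma before adjustment. Filled circles use all 14 libraries and open diamonds leave out RPR2 replicate 3: Bid (1.81 and 1.87) and Bax (0.76 and 0.73) lie to the right of 0, and Bcl2l1 (-1.47 and -1.16) and Bcl2l11 (-1.16 and -1.42) to the left.

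By mean FPKM in RPM the members ran in the order Bax, Mcl1, Bad, Bcl2l1, Bid, Bbc3, Bak1, Bcl2l11, Bcl2 and Pmaip1. Of the 9 neighbouring pairs, 5 kept this order in all 11 RPM tumours, namely Bax over Mcl1, Mcl1 over Bad, Bcl2l1 over Bid, Bak1 over Bcl2l11 and Bcl2l11 over Bcl2. Bad exceeded Bcl2l1 in 8, Bid exceeded Bbc3 in 8, Bbc3 exceeded Bak1 in 9 and Bcl2 exceeded Pmaip1 in 8 of the 11, so the order of these neighbours varied between tumours. Levels of different genes were not tested against each other. The order was another in RPR2, where Bcl2l1 exceeded Bad and Bbc3 exceeded Bid in all 3 tumours. The highest member was Bax in RPR2 replicate 1, Mcl1 in RPR2 replicate 2 and Bcl2l1 in RPR2 replicate 3.

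The members varied to different degrees among the RPM tumours. On the log2(FPKM + 1) scale the SD over the 11 RPM tumours was 0.21 for Bax, 0.21 for Bad, 0.22 for Bcl2l1 and 0.27 for Mcl1, against a median of 0.38 over 14862 genes. Bak1 (0.52) and Pmaip1 (0.50) were the members above that median, and their highest tumour exceeded the lowest 3.82-fold and 9.91-fold. For Bcl2 the SD was 0.32, though its highest tumour exceeded the lowest 4.72-fold, since this scale understates changes of low genes. RPM replicate 5 held the highest Bak1, Bcl2l11 and Pmaip1 and the lowest Bbc3 and Bid of the RPM tumours. This tumour also had the lowest neuroendocrine marker sum in RPM, 217.78 FPKM, and an alveolar type 2 marker sum of 671.13 FPKM. RPM replicate 2 held the highest Bax and Bad and the lowest Bcl2, Mcl1, Bak1 and Bcl2l11. The FPKM values of all genes summed to 939971 in that library, against 599119 to 829049 in the other RPM tumours. These ranks are on the deposited scale and were not taken after scaling to equal sums. The part of other cell types in these differences was not tested.

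RPM replicates 6 and 7 share a number in their titles, as do RPM replicates 10 and 11, and the labels do not say what the number marks. Within the first pair Mcl1 was at 45.55 and 60.76 FPKM, Bak1 at 5.97 and 11.84 FPKM and Bcl2 at 2.55 and 1.72 FPKM. Within the second pair Mcl1 was at 42.68 and 44.33 FPKM, Bak1 at 8.92 and 7.49 FPKM and Bcl2 at 2.18 and 2.26 FPKM. The second pair was closer for these genes, and likewise for Bcl2l1, Bax, Bbc3 and Bid. The first pair was closer for Bcl2l11 (4.30 and 4.30 FPKM, against 4.28 and 3.99 FPKM in the second). It was also closer for Bad (19.79 and 20.17 FPKM, against 21.74 and 19.37 FPKM) and Pmaip1 (0.45 and 0.48 FPKM, against 1.24 and 0.99 FPKM). Over all genes tested, the consensus correlation within a title number was 0.76, which rests on only 2 such pairs. Taking the number as a random effect left Bax, Bid, Bcl2l1, Bcl2l11 and Bcl2 called.

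For Bcl2 and Mcl1 the genes with the most similar pattern over the 11 RPM tumours were sought among 14861 genes by Pearson's r of log2(FPKM + 1). For Bcl2 these were Knop1 (r = 0.972, Spearman's rho = 0.989), Atad5 (r = 0.970, rho = 0.879) and Nr2c1 (r = 0.969, rho = 0.925). Without the 2 tumours farthest from the median of Bcl2, r was 0.904, 0.879 and 0.844. For Mcl1 they were H2-T22 (r = 0.957, rho = 0.945), Gucy1a1 (r = 0.941, rho = 0.955) and Stxbp3 (r = 0.917, rho = 0.891), with r of 0.916, 0.935 and 0.825 without the 2 farthest tumours. As the best of many genes these values describe the tumours only.

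Within RPM, no member was called between LSL/LSL and LSL/+ tumours (limma, Benjamini-Hochberg adjustment over 14862 genes). Of all genes 0% were called higher and 0.00673% lower in LSL/LSL (1 gene). At an unadjusted p under 0.05 there were 2 members, Bcl2 and Bad, and 17.3% of all genes. Bcl2 ranged from 1.40 to 2.55 FPKM in LSL/LSL tumours (median 1.78) and stood at 0.54 and 1.40 FPKM in the LSL/+ tumours, which lay at or below the LSL/LSL range (log2 difference 0.58, SE 0.22, adjusted p = 0.265). Bad ranged from 17.79 to 21.97 FPKM in LSL/LSL tumours (median 19.90) and stood at 31.22 and 23.60 FPKM in the LSL/+ tumours, above that range on the deposited scale (log2 difference -0.42, SE 0.14, adjusted p = 0.242). With another pseudocount, no filter or another scaling, the difference was 0.48 to 1.0 for Bcl2 and -0.62 to -0.17 for Bad. With 1 RPM library left out, the difference ranged from 0.26 (without RPM replicate 2) to 0.90 (without RPM replicate 4) for Bcl2 and from -0.62 (without RPM replicate 4) to -0.23 (without RPM replicate 2) for Bad, and neither was called. Myc itself was at 122.83 to 383.9 FPKM in LSL/LSL tumours and at 48.36 and 234.2 FPKM in the LSL/+ tumours. With only 2 LSL/+ tumours, a p that misses the threshold does not show that the tumours were alike.

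The relatives of the members were set beside them from lists of the pathway. The counts of each list below are to be read beside the shares of all genes tested. These were 18.4% called higher and 22.8% lower in RPM, and 16.2% and 28.5% without RPR2 replicate 3. Of 4 other pro-survival genes tested, 0 were called higher (0 also at an unadjusted p under 0.05) and 1 lower (Bcl2a1a), with a median log2 difference of -0.97, which was -0.19 without RPR2 replicate 3. The 3 Bcl2a1 genes are near-identical copies between which reads may be divided uncertainly. All 3 were high in RPR2 replicate 3, at 49.72, 88.71 and 27.70 FPKM for Bcl2a1a, Bcl2a1b and Bcl2a1d, and at most 4.97, 12.33 and 3.86 FPKM in any other tumour. That tumour had the highest macrophage marker sum, 1880.28 FPKM, of which Lyz2 alone supplied 1468.72 FPKM. Some markers of that list, Adgre1, C1qa, C1qb and C1qc, lay within the RPM range there. Without that tumour Bcl2a1a was no longer called (log2 difference -0.80, limma adjusted p = 0.211), the differences of Bcl2a1b and Bcl2a1d were 0.29 and 0.23, and Bcl2l2, the gene of BCL-W, was called lower in RPM (-0.61, adjusted p = 0.0443; -0.32 and 0.296 with all tumours). Bcl2a1d was called lower without RPR2 replicate 2 (-1.80, adjusted p = 0.0407).

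Of 10 other BH3-only and pore-forming relatives tested, 1 was higher in RPM (Hrk) and 5 were lower (Bcl2l12, Bcl2l14, Bik, Bmf and Bnip3l), with a median of -0.70 (-0.66 without RPR2 replicate 3), and without that tumour the counts were again 1 and 5, with Becn1 in place of Bcl2l12. Hrk, a BH3-only gene known from dying neurons, ranged from 1.16 to 6.93 FPKM in RPM and stood at 0.14, 0.12 and 0.02 FPKM in RPR2. Hrk passed the filter on low values through RPM alone, so that its levels had to differ, and its call is a description. Bik ranged from 1.31 to 4.94 FPKM in RPM and stood at 41.73, 32.57 and 11.22 FPKM in RPR2 (log2 difference -2.76, limma adjusted p = 5.02e-05). Bmf, whose product is tied to the cytoskeleton, ranged from 2.95 to 8.0 FPKM in RPM and stood at 12.33, 15.70 and 37.64 FPKM in RPR2 (-1.80, adjusted p = 0.000382). Bcl2l14 was at most 0.78 FPKM in RPM and at 8.66, 10.19 and 14.46 FPKM in RPR2, and it passed the filter through RPR2 alone, so its call is likewise a description. For Bik and Bmf the highest RPM tumour lay below the lowest RPR2 tumour, as for 13.6% of all genes tested.

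Of 14 genes of the apoptosome and the executioner caspases, 4 were higher in RPM (Cycs, Aifm1, Htra2 and Vdac2) and 4 lower, Casp9 and Casp6 among them, with a median of 0.34. Without RPR2 replicate 3 the same genes were called and the median was 0.15. Cycs, the gene of cytochrome c, ranged from 19.42 to 39.14 FPKM in RPM and stood at 11.58, 13.07 and 9.82 FPKM in RPR2 (log2 difference 1.10, limma adjusted p = 0.000454). Casp9, the caspase that the apoptosome activates, ranged from 3.57 to 6.96 FPKM in RPM and stood at 25.95, 21.46 and 19.60 FPKM in RPR2 (-1.85, adjusted p = 4.07e-06). Casp6, the gene of an executioner caspase, ranged from 1.76 to 6.30 FPKM in RPM and stood at 8.85, 8.54 and 42.6 FPKM in RPR2, highest in RPR2 replicate 3 (-2.06, adjusted p = 0.000680; -1.34 and 0.00210 without that tumour).

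Of 9 death receptor and adaptor genes tested, 0 were higher in RPM and 6 lower (Casp8, Cflar, Fadd, Ripk1, Tnfrsf1a and Tnfsf10), with a median of -1.43, and without RPR2 replicate 3 there were 5 lower with a median of -1.75, Tnfrsf1a being lost (adjusted p = 0.0636). At an unadjusted p under 0.05 no further gene of this list was higher. Among all genes tested, 18.4% were called higher and 22.8% lower, and 16.2% and 28.5% without RPR2 replicate 3. Casp8, the initiator caspase that cuts BID, ranged from 2.39 to 8.55 FPKM in RPM and stood at 38.92, 35.66 and 36.66 FPKM in RPR2 (log2 difference -2.99, limma adjusted p = 8.68e-07). Thus Bid was higher and Casp8 lower in every RPM tumour than in any RPR2 tumour. Cflar, the gene of the caspase 8 inhibitor FLIP, ranged from 2.49 to 6.58 FPKM in RPM and stood at 19.46, 20.72 and 17.28 FPKM in RPR2 (-1.88, adjusted p = 1.33e-05). Ripk1, a kinase of the receptor complex, differed by -1.47 (adjusted p = 0.00173). Tnfsf10, the gene of the ligand TRAIL, differed by -1.43. It passed the filter only through RPR2, so its call, counted above, is a description. Both medians of this list, -1.43 and -1.75, are the values of Tnfsf10.

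Of 6 inhibitors of apoptosis and their partners, 1 was higher in RPM (Birc5) and 3 lower (Xiap, Birc3 and Xaf1), with a median of -0.94, and without RPR2 replicate 3 there were 1 and 5 with a median of -1.22. Xiap, which blocks caspases directly, ranged from 4.39 to 16.56 FPKM in RPM and stood at 35.92, 32.53 and 16.86 FPKM in RPR2 (log2 difference -1.38, limma adjusted p = 0.00199). Birc3 ranged from 0.82 to 4.98 FPKM in RPM and stood at 12.88, 10.24 and 9.35 FPKM in RPR2 (-1.83, adjusted p = 0.000351). Xaf1, whose product antagonises XIAP, differed by -2.51 (adjusted p = 0.000622). Birc5, the gene of survivin, which also acts in cell division, differed by 1.77 (adjusted p = 7.84e-06).

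Of 15 p53 target genes outside the family, 2 were higher in RPM (Aen and Gtse1) and 7 lower, with a median of -0.52. Without RPR2 replicate 3 there were 1 and 7 with a median of -0.73. Gtse1 was then not called (log2 difference 0.39, against 0.98 with all tumours, limma adjusted p = 0.138 without that tumour). Cdkn1a, the gene of the cell cycle inhibitor p21, ranged from 12.31 to 58.73 FPKM in RPM and stood at 96.26, 74.21 and 37.68 FPKM in RPR2 (log2 difference -1.53, limma adjusted p = 0.00281). Aen, the gene of a nuclease, ranged from 27.05 to 45.66 FPKM in RPM and stood at 13.75, 9.23 and 7.19 FPKM in RPR2 (1.71, adjusted p = 3.87e-06). Btg2, an antiproliferative gene, and Polk, the gene of a DNA polymerase, differed by -1.25 and -1.15 (adjusted p = 0.000399 and 0.00101). Among the members that p53 is known to act on, Bax was thus higher in RPM, and Bbc3 and Pmaip1 were not called.

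Of 12 genes that act on MCL1 or BIM turnover or lie upstream of the family, 1 was higher in RPM (Atf4) and 2 lower (Foxo1 and Foxo3), with a median of -0.31, and without RPR2 replicate 3 there were 2 and 6 with a median of -0.73. Foxo1 and Foxo3 encode transcription factors known to act on Bcl2l11. Foxo1 ranged from 0.31 to 1.87 FPKM in RPM and stood at 6.85, 7.57 and 11.61 FPKM in RPR2 (log2 difference -2.32, limma adjusted p = 6.26e-06). Foxo3 ranged from 3.02 to 11.23 FPKM in RPM and stood at 14.60, 17.28 and 13.77 FPKM in RPR2 (-0.86, adjusted p = 0.0274), a call that was lost without RPR2 replicate 1 or 2 (adjusted p = 0.0679 and 0.112) and with TPM scaling (-1.06, adjusted p = 0.0502). Atf4, a transcription factor of the stress response, averaged 174 ± 32.9 FPKM in RPM and 116 ± 4.02 FPKM in RPR2 (SD, n = 11 and 3; 0.55, adjusted p = 0.0158), a call that was lost with TPM scaling (0.36, adjusted p = 0.104). Dynll1, the gene of a dynein light chain that binds BIM, did not pass with all tumours (0.80, adjusted p = 0.0547) and passed without RPR2 replicate 3 (1.37, adjusted p = 0.000634), RPM replicate 1 (0.86, adjusted p = 0.0448) or RPM replicate 4 (0.85, adjusted p = 0.0482).

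**Figure D4:**
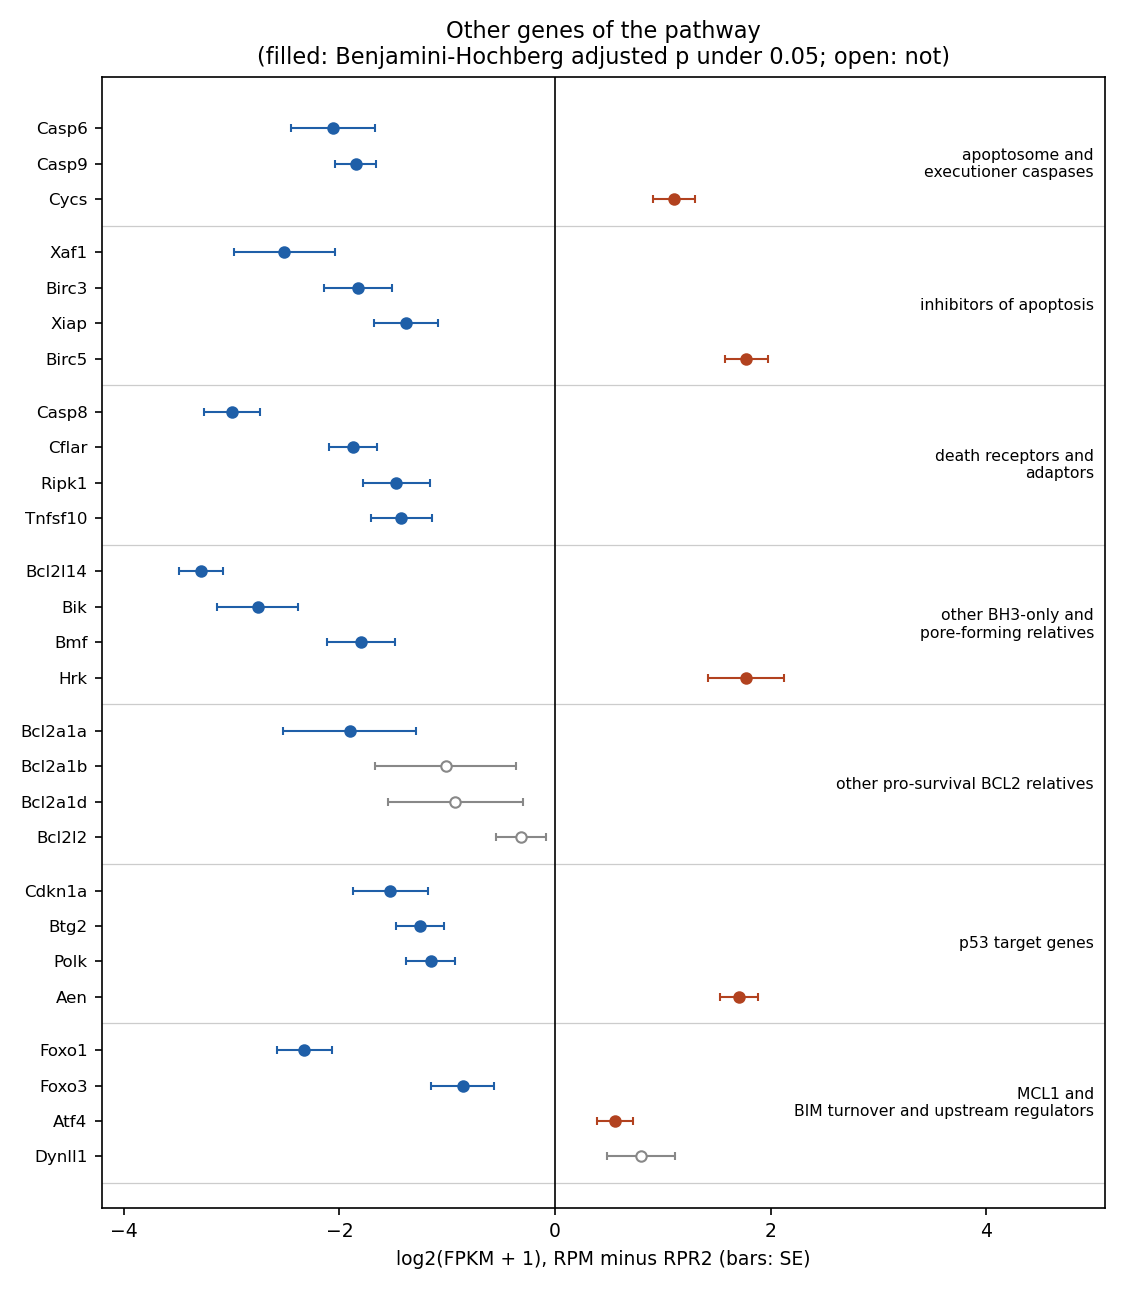
Difference in log2(FPKM + 1), RPM minus RPR2, of up to 4 genes with the smallest p in each pathway list, with bars for the SE; filled points passed limma's test at a Benjamini-Hochberg adjusted p under 0.05 and open points did not. The caspase genes Casp8 (-2.99), Casp6 (-2.06) and Casp9 (-1.85) lie left of 0, and Cycs (1.10), Birc5 (1.77) and Aen (1.71) lie right of it.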

How the data were processed

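RNA from 11 RPM and 3 RPR2 tumours was sequenced from poly(A)-selected, stranded libraries, per the labels' protocols. The authors deposited 1 table of FPKM, a value per gene and library. Per the submitters' processing notes, RSEM 1.2.12, Bowtie 1.0.1 and mm10 were used; which annotation, strand option or scaling was applied is not given in the sources used here. With RSEM, that match several genes are divided among them, which touches near-identical copies. Libraries were grouped by genotype label and Myc allele by source name, and replicates were numbered in accession order. A code in the sample descriptions differs between the models throughout, so that code and the model cannot be told apart.

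Identifiers were matched to symbols (46005 of 46517) and coordinates of GENCODE on GRCm38; 1 further row, listed at 0 in all 14 libraries, was left out. Values were tested as log2(FPKM + 1), a scale that understates changes of low genes, with limma 3.58.1 in R 4.3.3 (empirical Bayes with a trend, two-sided, Benjamini-Hochberg adjustment over all genes tested, threshold 0.05). Genes that reached an FPKM of 1 in 3 or more libraries entered, 15719 for RPM against RPR2 and 14862 within RPM. Steps of low values gave whole reads within 0.1 for 52.2 to 65.7% of values in short genes, so depth is an estimate and no count model was fitted. E-boxes were sought in RefSeq promoter windows, with 15 windows for 9 members.

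The members and lists were chosen with earlier results of these data known. Named genes are the members, the design genes Myc, Rb1, Trp53 and Rbl2, up to 4 genes per pathway list with the smallest p, the 3 genes most like Bcl2 and Mcl1 over the RPM tumours, and tumours that stood out by Dixon's ratio; other genes named in counts were chosen after their values were seen. Results of a few genes are not reported here and stay in the counts. Alternatives were other pseudocounts, filters, scalings, weights and tests, LSL/LSL tumours only, the title number as a random effect, and leaving out each library.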

Additional observations from a re-analysis of the deposited data

Results flagged for a closer look

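Dixon's ratio, the gap of the highest or lowest value to the nearest other divided by the whole range, was taken for 19 quantities over the 9 LSL/LSL tumours, and 2 exceeded the critical value of 0.493. Chance flags about 1 in 20 such quantities. Bak1 stood at 22.49 FPKM in RPM replicate 5, the highest of the 9 tumours, with the next at 12.82 FPKM. In the same tumour Bax made up 81.6% of the summed FPKM of Bax and Bak1, the lowest of the 9 tumours. Both values come from the same Bak1 level and are not independent of each other. RPM replicate 5 also had the lowest neuroendocrine marker sum of the RPM tumours, 217.78 FPKM, and an alveolar type 2 marker sum of 671.13 FPKM. RPM replicate 11 had a higher alveolar type 2 marker sum, 870.32 FPKM, with Bak1 at 7.49 FPKM.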

How the results depend on the processing

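In RPM against RPR2, Bax, Bid, Bcl2l1 and Bcl2l11 stayed called in the same direction in all 26 alternatives, with log2 differences of 0.57 to 0.88, 1.72 to 2.10, -1.68 to -1.15 and -1.42 to -0.89. Each of the 10 members kept its sign in every alternative run for this comparison. The call of Bcl2 was lost in 14 of 25, among them a pseudocount of 0.1 (adjusted p = 0.0660) or 0.01 (0.0734), no filter (0.0796), TPM scaling (0.0641), quantile normalization (0.0827), the exact Wilcoxon test (0.110), LSL/LSL tumours only (0.0531) and leaving out RPM replicate 1, 3, 4, 7 or 8 (0.0515 to 0.0577), and over all 25 the adjusted p ranged from 0.000106 to 0.248. Mcl1 was called in 5 of 26 (adjusted p 0.00313 to 0.168 over all) and Bad in 5 of 26 (0.00684 to 0.342 over all). The members called lower numbered 5 with array weights and 2 to 4 with 1 library left out, and those called higher 2 throughout.

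Of all genes, 1878 were called higher with TPM scaling, against 2897, and 2306 to 3029 with 1 library left out; 2171 were called lower at a mean FPKM of at least 5 and 6577 with array weights, against 3586, and 2633 to 4483 with 1 library left out. The median log2 difference of all genes was -0.06 as deposited, -0.23 with TPM scaling, 0.05 with median-of-ratios scaling and 0.08 with quantile normalization. For LSL/LSL against LSL/+, 4 genes were called higher with a pseudocount of 0.1 and 0 to 6 with 1 library left out; 30 were called lower without a filter, 0 with TPM scaling and 0 to 2 with 1 library left out. Without RPM replicate 2 or 4 the lone LSL/+ tumour is assumed to vary like the others. No member was called in that comparison in any of the 15 alternatives.

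Some differences that were not called changed sign as follows. With array weights Trp53 was at -0.02, Rbl2 at -0.01, Bcl2a1b at 0.34 and Bcl2a1d at 0.61, and without RPR2 replicate 3 Bcl2a1b was at 0.29 and Bcl2a1d at 0.23 (with no change of sign, -1.76 and -1.80 without RPR2 replicate 2). For the Myc allele, with median-of-ratios scaling Bcl2l1 was at -0.11, Pmaip1 at -0.06 and Bid at -0.02; with TPM scaling Bax was at 0.04 and Bbc3 at 0.18; with a pseudocount of 0.1 Pmaip1 was at -0.06. Without RPM replicate 1, 2 or 5 Pmaip1 was at -0.03, -0.06 and -0.10, without RPM replicate 2 Bax was at 0.13, and without RPM replicate 4 Bbc3 was at 0.11. Without RPM replicate 4 Bax (-0.57) and Pmaip1 (0.14) kept their signs and reached their other extremes. The cause of these changes was not tested.

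No paired analysis was possible because the labels give no replicate numbers shared by the models. Adding pseudogenes named for a member was not run, since the table holds no row so named. With 3 RPR2 and 2 LSL/+ tumours, the precision is set by the number of tumours, and for Pmaip1, Bcl2 and Hrk, at a few FPKM or less, also by depth.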

Other observations

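RPM replicate 9 stood at 77.97 FPKM for Trp53, against 7.93 to 16.08 FPKM in the other RPM tumours, and at 10.26, 12.45 and 5.69 FPKM in RPR2. This tumour was chosen after its values were seen. Of the 15 p53 target genes, 8 were highest in it among the 11 RPM tumours, namely Btg2, Ccng1, Cdkn1a, Gtse1, Mdm2, Phlda3, Trp53inp1 and Zmat3, and 0 to 2 in any other RPM tumour. Cdkn1a stood there at 58.73 FPKM (12.31 to 28.64 FPKM in the other RPM tumours), Btg2 at 48.81 FPKM, Mdm2 at 37.72 FPKM and Zmat3 at 16.79 FPKM. Among the BCL2 family genes, Bbc3 (17.13 FPKM) and Bid (19.14 FPKM) were highest in this tumour, while Bax stood at 105.3 FPKM and Pmaip1 at 0.97 FPKM, inside the range of the other RPM tumours. The table gives gene totals only, so which form of the Trp53 transcript was read was not analysed here.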
